A study of Homo sapiens with 12 samples.

Results

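Expression of 7 genes of the aryl hydrocarbon receptor (AHR) pathway was examined in PC9 and H1650 cells exposed to EGFR inhibitors. The genes were AHR, its partner ARNT, the feedback genes AHRR and TIPARP, and the cytochrome P450 genes CYP1A1, CYP1A2 and CYP1B1. They are 7 of the 60591 genes in the count table, matched by symbol, and all 7 were found. The group was chosen by the measured CYP1A1 counts, because CYP1A1 differed between the drugs in H1650, so the values of CYP1A1 in the drug-treated H1650 libraries are given here as a description without a test, and the other members were measured in those same libraries.

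RNA-seq was available for 12 libraries in 6 groups of 2 replicates. PC9 and H1650 are established human non-small cell lung cancer lines that, by the study's account, both carry an activating deletion in EGFR. In each line, cells were taken at 0 h with 0.1% DMSO (T0), after 36 h with 10 μM erlotinib, a first-generation EGFR inhibitor, or after 36 h with 0.1 μM osimertinib, a third-generation one. Each genetic background is 1 line, and the study calls the replicates biological without saying whether they came from separate cultures, so the p-values measure the spread between these libraries, part of which may be technical. No 36 h vehicle library was analysed here, so a change from T0 combines the drug with 36 h of culture. The doses of the drugs differed, so a difference between them is one of drug and dose together.

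AHR is a transcription factor of the bHLH-PAS family that waits in the cytoplasm in a complex with the chaperone HSP90. Binding of a ligand, such as a planar aromatic compound or a tryptophan metabolite, sends it to the nucleus, where it pairs with ARNT and binds DNA. CYP1A1, CYP1A2 and CYP1B1 are its classical targets and encode enzymes that oxidise many of its ligands, which include drugs: erlotinib is itself a known substrate of CYP1A1 and CYP1A2. AHRR, which competes with AHR for ARNT and DNA, and TIPARP, an ADP-ribosyltransferase that lowers AHR activity, are targets that act back on the receptor. In lung tissue the pathway is best known for its response to tobacco smoke.

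In GENCODE 29 on GRCh38, the genes lie on 6 chromosomes. AHR is at chr7:16916359-17346152 on the plus strand, ARNT at chr1:150809705-150876768 on the minus strand, AHRR at chr5:304176-438291 on the plus strand and TIPARP at chr3:156673235-156706770 on the plus strand. CYP1B1 is at chr2:38066973-38109902 on the minus strand, and CYP1A1 (chr15:74719542-74725610, minus) and CYP1A2 (chr15:74748844-74756202, plus) are neighbours.

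The core of the DNA element that AHR and ARNT bind is GCGTG. RefSeq promoter windows on GRCh38.p14 were found for 6 of the 7 members (9 windows, 3 for TIPARP and 2 for AHRR), and none was used for CYP1B1. The 250 bases before the start site were searched for GCGTG on both strands. Of all 35116 promoter windows, 32.2% held the core. Among the members it was present in 4 of the 9 windows, which belong to CYP1A1, AHRR and TIPARP. The windows of AHR, ARNT and CYP1A2 held no match, which says only that these letters are absent from 250 bases. The sites are shown with 10 bases on either side, 5′ to 3′ on the strand of the gene (a further match in the second AHRR window, 247 bases before the start, is left out), because they belong to the targets whose changes are described below. The core is in capitals, and CACGC is the core read on the other strand.
CYP1A1, chr15:74725571-74725595, minus strand, core starting 57 bases before the start site: agggaaggagGCGTGgccacacgta
AHRR first window, chr5:321674-321698, plus strand, 30 bases before: cgggcggctcGCGTGccggggtggg
AHRR second window, chr5:322558-322582, plus strand, 42 bases before: agaagggtggGCGTGtgcgcgcgtt
TIPARP first window, chr3:156674372-156674396, plus strand, 208 bases before: cgagaaaggaCACGCcccctcgcgg
TIPARP first window, chr3:156674438-156674462, plus strand, 142 bases before: aacgaacgcgCACGCgcgcgcaggg

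The TIPARP window lies wholly within exons annotated in GENCODE 29, and 82 of the 250 bases of the CYP1A1 window and 40 of those of the second AHRR window do. The first AHRR site also matched the longer form TNGCGTG, which 4.52% of all windows held and no other member window did. The first AHRR window is given whole, since AHRR was among the members with the highest changes in PC9 and this window overlaps no annotated exon in GENCODE 29.
AHRR first window, chr5:321464-321713, plus strand: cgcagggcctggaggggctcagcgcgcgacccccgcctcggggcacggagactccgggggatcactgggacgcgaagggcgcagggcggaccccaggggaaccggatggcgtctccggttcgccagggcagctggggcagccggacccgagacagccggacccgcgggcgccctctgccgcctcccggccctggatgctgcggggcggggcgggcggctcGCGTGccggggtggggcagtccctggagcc

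Reads counted on genes ran from 17961765 to 26346187 per library, with a median of 21581420.5, and a count of 0 allows up to 3 reads, or 0.116 to 0.168 CPM (counts scaled to library size), counting error only. Replicates differed by more than sampling noise in every group. The epithelial markers EPCAM, KRT8, KRT18, KRT19 and CDH1 lay between 185 and 4280 normalized CPM, while the lung lineage markers NKX2-1, NAPSA and SFTPB reached at most 1.85 CPM. The summed epithelial markers moved with the drugs: in PC9 they were at 8020 and 8072 CPM at T0, 5940 and 5948 after erlotinib and 8454 and 9156 after osimertinib, and in H1650 at 6260 and 6528, 5166 and 5202, and 7954 and 8628. The single markers did not all move together. Against T0 in PC9, 2 were higher and 3 lower with erlotinib, and 2 higher and 2 lower with osimertinib. In H1650, 1 was higher and 3 lower with erlotinib, and all 5 were higher with osimertinib. Between the drugs in PC9, 4 of the 5 were higher with osimertinib. These calls are by the test described below, where the shares of all genes called are given. The part of the marker shift in the results was not tested. The leukocyte markers PTPRC, CD3E and CD68 stayed at or below 0.543 CPM and the endothelial markers PECAM1, VWF and CDH5 at or below 3.48. Of the fibroblast markers, COL1A1 reached 44.8 CPM, while DCN and LUM were at 0 in 5 of the 6 groups. The summed fibroblast markers went from 18.3 and 21.1 CPM at T0 to 36.8 and 44.8 with osimertinib in PC9, nearly all of it COL1A1, and the part of this in the PC9 osimertinib results was not tested. Mitochondrial genes took 4.36% to 5.36% of the counts at T0 and 5.77% to 7.20% in the drug-treated libraries, a shift that goes with every comparison of drug with T0 and whose part in the results was not tested. In bulk RNA, fewer cells with a transcript and less of it per cell cannot be told apart.

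At T0, 5 of the 6 tested members differed between the lines, in a comparison in which 69.6% of all tested genes were called. Values are normalized CPM, that is, after TMM scaling, and differences are log2 fold changes with their standard errors from edgeR's quasi-likelihood test, called at a Benjamini-Hochberg adjusted p under 0.05 over 19108 genes. The members higher in H1650 were AHR, AHRR, CYP1B1 and CYP1A1, TIPARP was lower, and ARNT was not called. Over all tested genes 35.8% were higher and 33.8% lower, so the count of members called is near the background, and the sizes of the differences follow. CYP1A1 had 0.302 and 0.543 CPM in PC9 (6 and 11 reads) against 9.93 and 8.53 CPM in H1650 (213 and 221 reads), a log2 difference of 4.42 ± 0.31 (SE), or 21.4-fold. Among all tested genes, 5.17% had a higher value of this difference. CYP1B1 had 50.6 and 44.1 CPM in PC9 and 337 and 314 in H1650, 6.88-fold higher in the latter. AHR had 32.4 and 29.8 CPM in PC9 and 87.7 and 82.7 in H1650, a 2.74-fold difference. The libraries of the lines did not overlap for any of the 6 tested members, ARNT included, which was not called. The share of all genes without overlap was not counted, and the 69.6% is a share of calls. It was not counted for the comparisons below either, so each statement there on overlap of groups is a description only. AHRR had 7.81 and 4.84 CPM in PC9 and 10.7 and 10.96 in H1650, a log2 difference of 0.78 ± 0.16, which was 1.16 without the first PC9 T0 library and 0.47 without the second and was called in both cases. TIPARP had 67.5 and 71.0 CPM in PC9 and 48.0 and 43.0 in H1650, 1.52-fold lower. ARNT differed little, with 40.0 and 42.2 CPM in PC9 and 37.8 and 36.8 in H1650 (log2 difference -0.14, 95% interval -0.32 to 0.04).

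Per length of the gene, the order of the members at T0 also differed between the lines. In PC9, TIPARP had the highest level with 14.4 ± 0.527 RPKM (SD, n = 2), then CYP1B1 with 7.91 ± 0.766, ARNT with 6.37 ± 0.244, AHR with 3.86 ± 0.224, AHRR with 0.790 ± 0.263 and CYP1A1 with 0.126 ± 0.0506. In H1650, CYP1B1 stood first with 54.4 ± 2.71 RPKM, followed by AHR with 10.6 ± 0.443, TIPARP with 9.49 ± 0.739, ARNT with 5.79 ± 0.102, CYP1A1 with 2.75 ± 0.296 and AHRR with 1.35 ± 0.0245. CYP1A2 was last in both lines. The AHR values use its whole deposited length, although part of its exons is shared with another gene (below), so its place in the order is uncertain.

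The levels by library are plotted below. With osimertinib, AHRR, TIPARP and CYP1B1 rose in PC9 and fell in H1650, while AHR rose with both drugs in both lines.

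**Figure D1:**
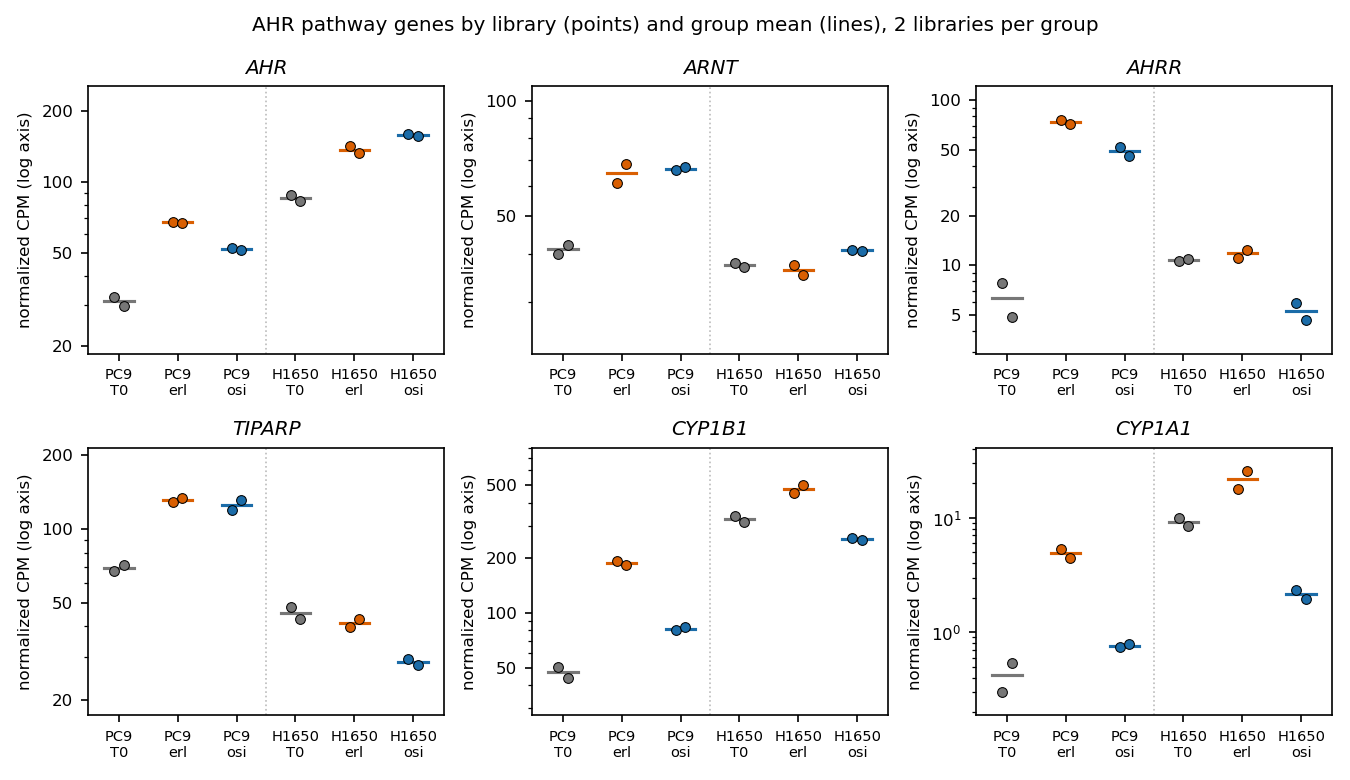
Normalized CPM on a log axis for AHR, ARNT, AHRR, TIPARP, CYP1B1 and CYP1A1 in the 2 libraries of each group (points) with the group mean (line), at T0 (grey), after erlotinib (orange) and after osimertinib (blue). In PC9 the erlotinib libraries lie above T0 for all 6 genes, while in H1650 the osimertinib libraries lie below T0 for AHRR, TIPARP, CYP1B1 and CYP1A1 and above it for AHR. The share of all genes whose libraries separate in this way was not counted, so this describes the plot only.

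In PC9, erlotinib raised all 6 tested members. Calls were made for 61.8% of all genes in this comparison, and for 32.7% in the upward direction. Osimertinib raised 5 of the 6 in PC9, all but CYP1A1, with calls for 61.4% of all genes and 32.7% upward. The median change of all tested genes was 0.07 with erlotinib and 0.06 with osimertinib on the log2 scale. In H1650, where CYP1A1 was not tested, erlotinib raised AHR and CYP1B1 and changed none of the other 3 by the test (36.5% of all genes called, 18% higher and 18.5% lower). Osimertinib raised AHR and lowered AHRR, TIPARP and CYP1B1 in H1650, with ARNT not called (35.7% of all genes called, 17.8% higher and 17.9% lower). These 4 comparisons share the T0 libraries of their line.

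**Figure D2:**
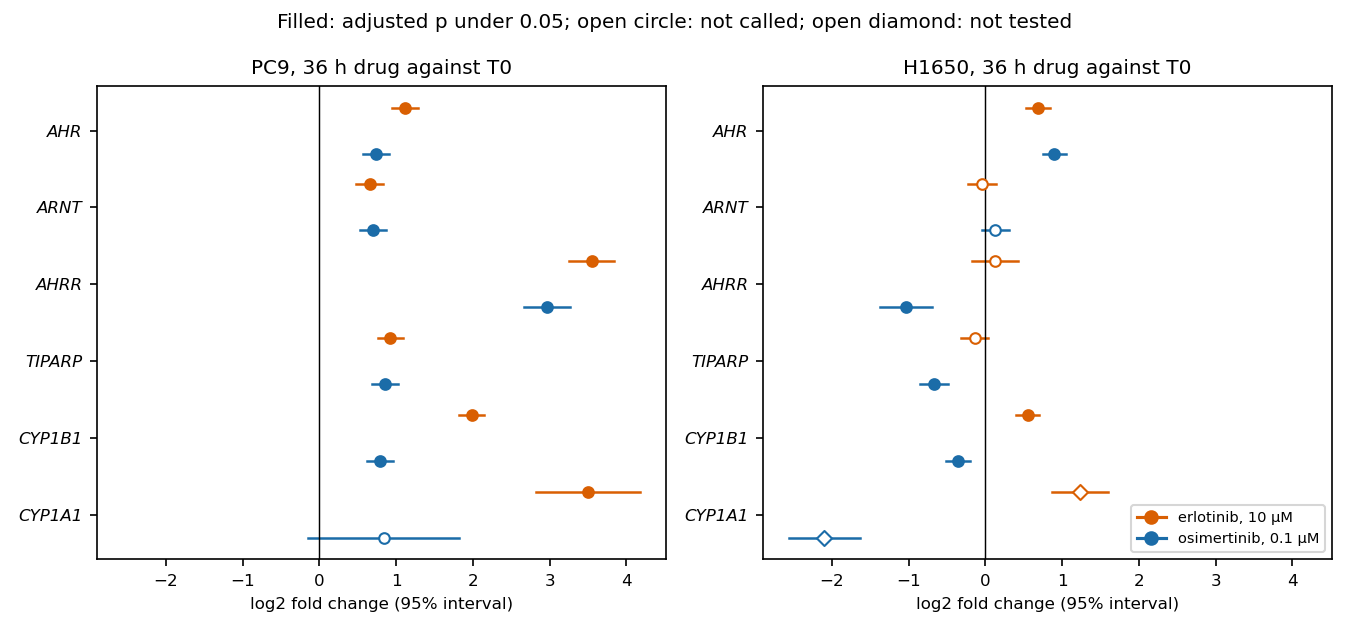
Log2 fold change against T0 with its 95% interval for 6 members in PC9 (left) and H1650 (right), for erlotinib (orange) and osimertinib (blue); filled circles passed an adjusted p of 0.05, open circles did not and open diamonds were not tested. AHRR lies at 3.55 and 2.96 in PC9 and at 0.13 and -1.03 in H1650. The intervals of the open diamonds, CYP1A1 in H1650, are not to be read as a test, because these values chose the group.

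The receptor itself was the one member that rose in all 4 comparisons. In PC9, AHR went from 32.4 and 29.8 CPM at T0 to 67.5 and 67.3 after erlotinib and 52.4 and 51.2 after osimertinib. These are log2 changes of 1.12 ± 0.08 (2.17-fold) and 0.74 ± 0.08 (1.67-fold), with adjusted p of 1.53e-12 and 9.43e-09 in edgeR. In H1650, where T0 was at 87.7 and 82.7 CPM, AHR reached 142 and 132 after erlotinib (1.61-fold) and 160 and 157 after osimertinib (1.86-fold). The 6 groups did not overlap for AHR, and all H1650 libraries lay above all PC9 libraries. Part of the AHR exons, 2373 bases or 29.4% of their length, is also assigned on the same strand to AC019117.2 in GENCODE 29. That gene had at most 5 reads in any library, which does not show how many reads in the shared stretch were left uncounted. Reads there cannot be assigned with certainty, and the level of AHR may be too low.

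ARNT, the partner of AHR, HIF1A and other bHLH-PAS factors, rose only in PC9, where the rise was tested against that in H1650 (below). It had 40.0 and 42.2 CPM at T0, 61.0 and 68.3 after erlotinib and 66.1 and 67.1 after osimertinib, which gave log2 changes of 0.65 ± 0.08 and 0.70 ± 0.08. The drug groups overlapped each other and not T0. In H1650, ARNT stayed between 35.1 and 40.9 CPM in all 6 libraries, with log2 changes of -0.04 (95% interval -0.22 to 0.13) and 0.13 (-0.05 to 0.30).

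AHRR, the repressor, rose in PC9 with both drugs and did not do so in H1650, where it fell with osimertinib. In PC9 it had 7.81 and 4.84 CPM at T0, 76.5 and 71.5 after erlotinib and 52.3 and 46.2 after osimertinib. The log2 changes were 3.55 ± 0.14 (11.7-fold, adjusted p 3.24e-18) and 2.96 ± 0.14 (7.80-fold, adjusted p 2.22e-16). Of the 19108 tested genes, 477 had a higher change with erlotinib, and 4.57% had one with osimertinib. The erlotinib change of AHRR did not stand apart from that of CYP1A1, 3.50 ± 0.33, and their order depended on the T0 library: without the first one AHRR was at 3.93 and CYP1A1 at 3.14, and without the second AHRR was at 3.24 and CYP1A1 at 3.97. In H1650, AHRR had 10.7 and 10.96 CPM at T0 and 11.1 and 12.5 after erlotinib, a log2 change of 0.13 (95% interval -0.17 to 0.43) that was not called. After osimertinib it was at 5.92 and 4.68 CPM, 2.05-fold lower than at T0 (adjusted p 1.06e-05). The H1650 osimertinib libraries overlapped those of PC9 at T0, and every other group stood apart. AHRR shares 244 exonic bases on the same strand with PDCD6, which had between 504 and 1316 reads per library and no called change with either drug, so reads in that stretch cannot be assigned with certainty.

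TIPARP rose in PC9 with both drugs and fell in H1650 with osimertinib, as AHRR did. In PC9 it had 67.5 and 71.0 CPM at T0, 129 and 134 after erlotinib and 119 and 131 after osimertinib, with the drug groups overlapping. The rises were 1.90-fold and 1.80-fold (adjusted p 6.82e-11 and 3.85e-10). In H1650 the values were 48.0 and 43.0 CPM at T0 and 39.6 and 42.9 after erlotinib, a log2 change of -0.14 (95% interval -0.32 to 0.04) that was not called. Osimertinib left 29.4 and 27.8 CPM, 1.59-fold lower than T0 (adjusted p 7.02e-07).

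CYP1B1, the P450 of steroids and polycyclic hydrocarbons, was the most abundant of the CYP1 genes in every group, and it rose with both drugs in PC9 and moved in opposite directions with the drugs in H1650. In PC9 it had 50.6 and 44.1 CPM at T0, 191 and 183 after erlotinib and 80.1 and 83.1 after osimertinib. These are rises of 3.95-fold and 1.72-fold (adjusted p 4.81e-18 and 2.36e-09). In H1650 it had 337 and 314 CPM at T0, 452 and 501 after erlotinib and 257 and 251 after osimertinib. Erlotinib raised it 1.46-fold and osimertinib lowered it 1.28-fold (adjusted p 9.69e-07 and 0.000328). No group overlapped another, and the order from high to low was H1650 erlotinib, T0 and osimertinib, then PC9 erlotinib, osimertinib and T0. CYP1B1 shares 678 exonic bases with the antisense gene CYP1B1-AS1, 11.3% of its exonic length, and the sources used here do not say whether strand was used in counting. The counts of the antisense gene were 1.75% to 4.45% of those of CYP1B1 and also rose in PC9 with both drugs (log2 changes 1.97 ± 0.26 and 1.51 ± 0.27) and in H1650 with erlotinib (0.81 ± 0.18).

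CYP1A1, the most inducible of the CYP1 genes, rose with erlotinib in PC9 from a level near the limit of detection. Its 6 and 11 reads at T0 became 119 and 113 after erlotinib and 16 and 14 after osimertinib. In normalized CPM these are 0.302 and 0.543, then 5.33 and 4.41, then 0.740 and 0.785. The erlotinib change was 3.50 ± 0.33 on the log2 scale, or 11.3-fold (adjusted p 3.36e-10), and 2.61% of all tested genes had a higher one. The osimertinib change of 0.83 ± 0.48 was not called (adjusted p 0.132, and 0.0855 to 0.493 over the alternatives), and its 95% interval, -0.14 to 1.81, includes 0. Without the first PC9 T0 library the change was 0.48, and without the second it was 1.31. In H1650, CYP1A1 had 9.93 and 8.53 CPM at T0, 17.6 and 25.7 after erlotinib and 2.34 and 1.96 after osimertinib, from 213 and 221, 342 and 551, and 49 and 44 reads. These values chose the group and were not tested: the erlotinib libraries lay above T0, with a fitted log2 value of 1.24, and the osimertinib libraries below it, with -2.10. Over all groups the order was H1650 erlotinib, H1650 T0, PC9 erlotinib, H1650 osimertinib, PC9 osimertinib and PC9 T0, with no overlap between neighbours, of which the last 2 did not differ by the test.

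CYP1A2, which lies beside CYP1A1 on chromosome 15 and is mainly a liver enzyme, was hardly detected. It had 0 and 0 reads in PC9 at T0, 0 and 1 after erlotinib and 0 and 2 after osimertinib. In H1650 it had 7 and 9 reads at T0, 12 and 14 after erlotinib and 7 and 8 after osimertinib, or at most 0.652 CPM. It passed the filter on low counts only through the H1650 erlotinib libraries, so it was not tested. The transcripts of CYP1A2 and CYP1A1 in GENCODE 29 share 33 of 2699 windows of 30 bases and 0 of 2679 windows of 50 bases.

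Comparing the drugs directly in PC9, 4 of the 6 tested members were lower after osimertinib than after erlotinib and the other 2 were not called. Over all genes 16.6% were called, 6.41% lower and 10.1% higher. CYP1A1 was 6.34-fold lower (log2 difference -2.67 ± 0.29, adjusted p 1.28e-07), and 0.607% of all tested genes had a lower value. CYP1B1 was 2.29-fold lower (-1.20 ± 0.08, adjusted p 3.76e-12), AHRR also lower (-0.58 ± 0.12, adjusted p 0.00051) and AHR 1.30-fold lower (-0.38 ± 0.08, adjusted p 0.000838). ARNT and TIPARP were not called, with 95% intervals of -0.13 to 0.21 and -0.24 to 0.09. The contrast that chose the group used no PC9 library, but PC9 results were known when the members were chosen.

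In H1650 the corresponding differences are a description only, since this contrast chose the group. CYP1A1 had 2.34 and 1.96 CPM after osimertinib against 17.6 and 25.7 after erlotinib, a fitted log2 difference of -3.33. The values were -1.16 for AHRR, -0.91 for CYP1B1, -0.53 for TIPARP, 0.17 for ARNT and 0.21 for AHR. CYP1B1 and AHRR had lower values with osimertinib in both lines, and so did TIPARP, which was not called in PC9. AHR had a lower value in PC9 and a higher one in H1650. CYP1A1 was lower in both lines too, but its H1650 difference chose the group, so the shared direction is no test.

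**Figure D3:**
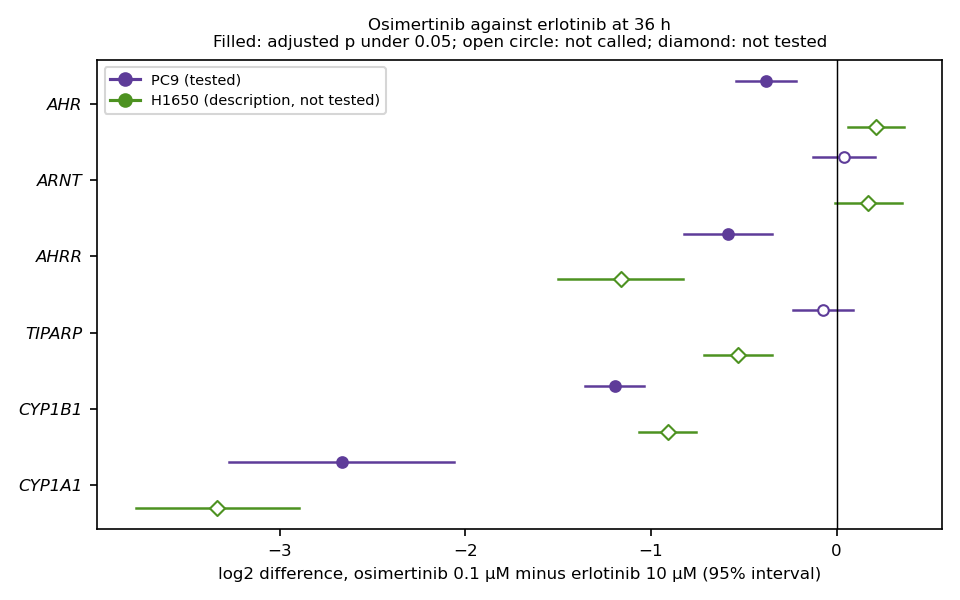
Log2 difference of osimertinib (0.1 μM) minus erlotinib (10 μM) at 36 h with its 95% interval for 6 members in PC9 (purple, tested) and H1650 (green, not tested). Filled circles passed an adjusted p of 0.05. The H1650 intervals are not to be read as a test, because the CYP1A1 difference in H1650 chose the group. CYP1A1 lies farthest to the left in PC9, at -2.67, and at -3.33 in H1650, while ARNT lies near 0.

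Whether the lines differed in their change was tested by the drug-by-line term, the change in H1650 minus that in PC9. With erlotinib all 5 tested members had a lower change in H1650 (40.8% of all genes called, 21.1% with a higher and 19.8% with a lower change in H1650). With osimertinib 4 of 5 did so, and AHR was not called (41.9% of all genes called, 21.5% higher and 20.5% lower). Of the 5 members, AHRR had the term farthest from 0, at -3.42 ± 0.21 with erlotinib and -4.00 ± 0.22 with osimertinib, and 2.53% and 2.07% of all tested genes had a lower value. For TIPARP it was -1.07 ± 0.12 and -1.52 ± 0.12, for CYP1B1 -1.43 ± 0.11 and -1.14 ± 0.11, and for ARNT -0.70 ± 0.12 and -0.57 ± 0.12. AHR differed with erlotinib (-0.43 ± 0.11, adjusted p 0.00229) and not by the test with osimertinib (0.16, 95% interval -0.07 to 0.39).

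Other genes that are known to respond to AHR were described from a list of 16, of which 13 passed the filter. Because some passed it through 1 line only, the counts of this and the following lists cover the genes that also passed it within the line compared. Among all such genes, 67% were called with erlotinib and 66.5% with osimertinib in PC9, while in H1650 the shares were 40.2% and 39.4%. Of 12 targets in PC9, 8 rose and 3 fell with erlotinib, and 7 rose and 3 fell with osimertinib. Their median changes were 0.73 and 0.62 on the log2 scale, against 0.09 and 0.08 for all such genes. In H1650, where EREG, SERPINB2, UGT1A1 and UGT1A6 are left out, 4 of 9 rose with erlotinib while the other 5 were not called, and 2 rose and 4 fell with osimertinib, with medians of 0.41 and -0.16 against 0.01 and 0.00. ALDH3A1, an aldehyde dehydrogenase, rose alike with both drugs in PC9, from 512 and 480 CPM to 1750 and 1669 with erlotinib and 1668 and 1764 with osimertinib (3.45-fold and 3.46-fold). In H1650 it had 2 and 1 reads at T0, 9 and 12 after erlotinib and 8 and 9 after osimertinib. The difference between the drugs in PC9 was 0.01 on the log2 scale for ALDH3A1, against the -2.67 of CYP1A1.

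NQO1, a quinone reductase that is also a target of NFE2L2, rose 1.57-fold and 1.49-fold in PC9 and 1.47-fold with erlotinib in H1650, and was not called with osimertinib there (463 and 459 CPM against 503 and 526 at T0, adjusted p 0.0767). UGT1A6, a glucuronosyltransferase that shares exons with other UGT1A genes so that its reads may be split, rose 2.30-fold and 3.52-fold in PC9 and had 1 read in the 6 H1650 libraries together. XDH, the xanthine dehydrogenase, fell 5.64-fold and 5.99-fold in PC9 and 1.79-fold with osimertinib in H1650. STC2 and SLC7A5, which ATF4 also controls, were lower after osimertinib than after erlotinib in PC9, by 7.25-fold and 1.69-fold, while PTGS2, the inducible cyclooxygenase, was 2.47-fold higher. The members of the list therefore did not share 1 direction between the drugs in PC9. Of the 13 genes past the filter over all libraries, 3 were higher and 2 lower with osimertinib and 8 were not called, with a median of 0.01. Over all genes 16.6% were called, 10.1% higher and 6.41% lower. This count was not limited to genes that pass within PC9 and includes CD36, which does not.

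**Figure D4:**
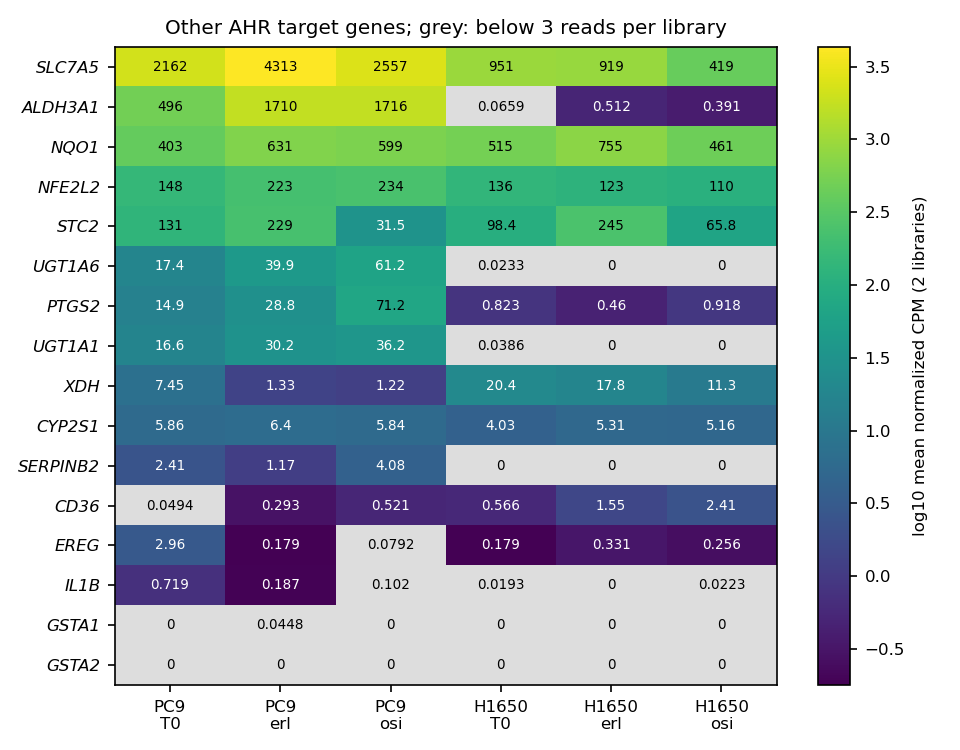
Mean normalized CPM of 16 other AHR target genes in the 6 groups (2 libraries each), coloured on a log10 scale and printed in each cell; grey cells lie below the level of 3 reads. ALDH3A1, UGT1A6 and UGT1A1 are well above that level in PC9 and at or near it in H1650, and STC2 is lower after osimertinib than after erlotinib in both lines.

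The receptor complex list held 10 chaperones, coactivators and ligase subunits, and all 10 were tested. In PC9, 5 rose and 5 fell with each drug (67% and 66.5% of all genes called), and in H1650 3 rose and 4 fell with erlotinib and 4 rose and 3 fell with osimertinib (40.2% and 39.4%). HSP90AA1, the inducible form of the chaperone that holds AHR in the cytoplasm, fell 3.54-fold with erlotinib and 3.05-fold with osimertinib in PC9, from a T0 level 9.19-fold above that of H1650, and 1.63-fold and 1.52-fold in H1650. HSP90AB1 fell in all 4 comparisons, by 1.53-fold to 1.75-fold. The coactivators NCOA1, NCOA2 and NCOA3 rose in PC9 with both drugs (1.47-fold to 1.98-fold), and NCOA2 and NCOA3 did so in H1650 with both (1.37-fold to 1.57-fold). ARNT2, a relative of ARNT, fell 8.75-fold and 5.53-fold in PC9, from 13.6 and 14.5 CPM, and was at most 1.19 CPM in H1650, where it rose 2.32-fold with osimertinib. Between the drugs in PC9, edgeR called 0 of the 10 (16.6% of all genes called), with 2 at an unadjusted p under 0.05, and DESeq2 called 1.

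Among 12 other bHLH-PAS factors, of which 10 were tested, 3 rose and 6 fell in PC9 with each drug (67% and 66.5% of all genes called). NPAS2, a partner of the clock factor ARNTL, fell 5.01-fold with either drug in PC9, where ARNTL fell 2.14-fold and 2.32-fold. EPAS1, the hypoxia factor HIF-2α, fell in all 4 comparisons, by 1.18-fold to 2.71-fold, and the log2 difference of osimertinib from erlotinib in PC9 was -0.59 ± 0.07. SIM1 had 0 reads in PC9 at T0 and 10 to 29 after the drugs, at least 2.80-fold higher with erlotinib and 7.10-fold with osimertinib against the level of 3 reads per library. In H1650, of 9 factors 1 rose and 4 fell with erlotinib, and 1 rose and 2 fell with osimertinib (40.2% and 39.4% of all genes called).

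The kynurenine pathway makes AHR ligands from tryptophan. Of its 12 genes 8 were tested in PC9 and 9 in H1650, and IDO1, the best known entry enzyme, was at most 0.277 CPM in any library. QPRT, which carries the pathway on to NAD, rose in all 4 comparisons: 3.50-fold and 5.06-fold in PC9 and 1.56-fold and 1.94-fold in H1650. KMO, the kynurenine monooxygenase, rose in PC9 from 0 and 5 reads to 38 and 24 with erlotinib and 25 and 29 with osimertinib, and fell 2.41-fold with erlotinib in H1650. In PC9, 4 of the 8 rose and 2 fell with erlotinib, and 3 rose and 1 fell with osimertinib (67% and 66.5% of all genes called). In H1650, 2 of the 9 rose and 1 fell with erlotinib, and 3 rose and 1 fell with osimertinib (40.2% and 39.4%). These shares of calls are near the background.

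P450 enzymes need electrons from POR and hand their products to conjugating enzymes. Of 12 genes in this list 10 were tested in PC9 and 9 in H1650. In PC9, 6 rose with each drug, while 1 fell with erlotinib and 2 with osimertinib (67% and 66.5% of all genes called). In H1650, 5 rose and 1 fell with erlotinib, and 5 rose with osimertinib while the other 4 were not called (40.2% and 39.4%). POR rose in all 4 comparisons, by 1.39-fold to 1.69-fold, and so did EPHX1, the microsomal epoxide hydrolase, by 1.64-fold to 2.78-fold, and SULT1A1, a sulfotransferase with near-identical paralogs that may share its reads, by 1.62-fold to 2.77-fold. Between the drugs in PC9, edgeR called 0 of the 10 (16.6% of all genes called), with 1 at an unadjusted p under 0.05, and DESeq2 called 0. CYP3A4, another enzyme that oxidises erlotinib, was at most 0.314 CPM in any library. GSTP1 had 17975 and 17845 reads in PC9 at T0 and 0 in H1650 at T0, at least 6989-fold lower, and it is left out of the H1650 counts.

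The genes whose log2 CPM followed a member most closely over the 12 libraries were found by Pearson correlation, as a description in which the 2 lines form separate clusters. For CYP1A1 they were RAB11FIP5 (r = 0.950), EPM2A (0.935) and HEATR6 (0.934), and for CYP1B1 SNX18 (0.978), SPATA20 (0.977) and PRICKLE1 (0.976). For AHRR they were BACH2 (0.976), ZBED9 (0.973) and DSTYK (0.971), and for TIPARP KLHL5 (0.992), SPIN1 (0.989) and TES (0.987). BACH2 had mean levels of 0.649, 5.94 and 4.99 CPM in PC9 at T0, after erlotinib and after osimertinib and 1.58, 1.48 and 0.598 in H1650, the same order of groups as AHRR within each line except for erlotinib and T0 in H1650. RAB11FIP5 varied over a much smaller range than CYP1A1, from 50.9 CPM in PC9 at T0 to 63.5 in H1650 after erlotinib.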

How the data were processed

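RNA was sequenced from PC9 and H1650 cells. The counts the authors deposited are whole numbers of reads per gene, not normalized, made by featureCounts within DolphinNext; the labels name GRCh38, while the aligner, the annotation release and the strandedness are not given in the sources used here. Library names in the labels tied each column to its sample. Testing used edgeR 4.0.16 (R 4.3.3), after filterByExpr had retained 19108 of 60591 genes. TMM factors were 0.941 to 1.08, and 1 quasi-likelihood model with 6 groups was fitted to all 12 libraries. RPKM used the deposited gene length. Genes at an adjusted p under 0.05 were called. The members and lists were chosen with earlier results of these data known. CYP1A1 was not tested in contrasts with treated H1650 libraries, and no gene was tested in H1650 osimertinib against erlotinib. CYP1A2 was left out of all tests, although the design included it, because it passed the filter only where it was high. The named genes of each list were drawn from the up to 2 highest and 2 lowest called changes with a mean of at least 1 CPM. Not all genes that met this rule are described, NPAS1, ARNTL2 and KYNU among those left out. The 3 genes most alike were named for 4 members. IDO1, CYP3A4, UGT1A1 and genes overlapping a member were named in addition, after their values were seen. List counts against T0 were limited, after the data were seen, to genes that pass the filter within the line. Promoters came from RefSeq and gene models from GENCODE 29, both on GRCh38. The fits were also run on simulated counts with known changes in few genes of 1 group, drawn as independent libraries with the spread fitted to these data. That run checks the code and does not show how well the model holds for the real libraries. Alternatives were DESeq2 1.42.0, RLE scaling, other filters, 1 fit per line, a replicate block and leaving out each library.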

Additional observations from a re-analysis of the deposited data

Results flagged for a closer look

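Drug changes that differed between the lines by the drug-by-line term are given here as values, the log2 change in H1650 minus that in PC9. With erlotinib they were -1.43 for CYP1B1, -0.43 for AHR, -3.42 for AHRR, -0.70 for ARNT and -1.07 for TIPARP. With osimertinib they were -1.14 for CYP1B1, -4.00 for AHRR, -0.57 for ARNT and -1.52 for TIPARP. AHRR is the member for which the change in PC9 and in H1650 lay farthest apart, 2.96 against -1.03 with osimertinib. Groups of 2 libraries are too small for a test of single outlying samples.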

How the results depend on the processing

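The counts of members called stayed within 1.5 times their main value under all alternatives run, and under them 771 log2 fold changes of tested members kept their direction and their side of the threshold while 1 did not. That was ARNT in PC9 osimertinib against erlotinib, not called in any fit, which went from 0.04 to -0.037 without the first PC9 erlotinib library (range without single libraries -0.04 to 0.13); the cause was not tested. Leaving out libraries gave 6 members called for PC9 erlotinib against T0, 5 for PC9 osimertinib and 2 and 4 for the drugs in H1650. The H1650 osimertinib minus erlotinib value moved by more than the replicate spread for CYP1A1, where leaving out libraries gave -3.58 to -3.03, and for CYP1B1, with -0.98 to -0.82. Requiring 10 or more reads in each of the libraries removed CYP1A1 (5 members called for PC9 erlotinib, 3 for PC9 osimertinib against erlotinib and 4 at T0). The AHRR difference at T0 ran from 0.47 to 1.16 when single libraries were left out. The replicate number as a replicate block changed no member call: 6, 5, 2 and 4 members were called for the drugs against T0, and over all genes it moved the calls for PC9 osimertinib against erlotinib from 3163 to 4385. Calls also went from 6966 to 8014 for H1650 erlotinib against T0, and from 13305 to 12971 for H1650 against PC9 at T0. The deviations of same-numbered libraries correlated between 0.0129 and 0.0947. The sources used here do not say whether the numbers pair the samples, these values do not settle it, and the main fit did not pair them. At this depth, CYP1A2 and the CYP1A1 change with osimertinib in PC9 are limited by reads.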
